A study of Mus musculus with 36 samples.

Results

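The sperm tail and sheath genes described here are 9 genes, *Odf1*, *Odf2*, *Akap3*, *Akap4*, *Smcp*, *Oaz3*, *Spata18*, *Tssk6* and *Meig1*, of 54838 genes in the count table of cauda spermatozoa. They were chosen by symbol and sort by role into outer dense fibre, fibrous sheath and mitochondrial sheath genes and factors of tail assembly. Several of them were picked because their values were higher in sperm of mice on high-fat diet (HFD) than on low-fat diet (LFD), so the diet values below describe the genes and are no test of them. All 9 symbols were found once among the 51746 genes that the sperm table shares with the table of round spermatids. The animals were male mice, C57BL/6 wildtype by their labels and C57BL/6N in the study's methods, given for 2 weeks either HFD, with 60% of its kcal as fat, or LFD, with 10%, and were 8 weeks old when germ cells were taken. There were 3 sperm samples per diet and 6 round spermatid samples, 3 of each diet by their labels, whose columns in the count table do not say which diet they had, so they form 1 group here. The sperm were collected from the cauda epididymis by swim-up, and the round spermatids by density gradient. By the study's methods the sperm then passed through a detergent lysis step (SDS and Triton X-100), and a sample was kept if no somatic cells were seen under the microscope. Background came from 6 samples of morulae, embryos made by in vitro fertilisation with sperm of HFD or LFD males (3 of each), and from 6 samples each of liver, gastrocnemius muscle and epididymal white adipose tissue (eWAT) of offspring of HFD males, tolerant or intolerant to glucose and fed on chow themselves. For round spermatids, liver, muscle and eWAT the tissue is that of the whole table, as no column name gives it. Libraries carry the order of the columns as their number, which is not the number of the sample titles. By the methods the round spermatids came from 3 mice per diet. For the sperm samples the labels do not give the number of animals, so the spread between them may be partly technical, and p-values measure that spread alone.

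The sperm tail is built around an axoneme of microtubules. In the midpiece and the principal piece the axoneme is flanked by outer dense fibres, stiff cables rich in cysteine. Around them lies a sheath of mitochondria in the midpiece and a fibrous sheath in the principal piece, which holds kinase anchors and glycolytic enzymes. The genes for these parts are transcribed in spermatids, before the nucleus is compacted with protamines, and many of their mRNAs are stored for later translation. A mature spermatozoon is regarded as silent for nuclear transcription and carries a remnant of these mRNAs.

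The libraries held 2560219 to 4062321 counts in sperm and 20138842 to 31056066 in round spermatids. In sperm, 43.5 to 84.3% of the counts fell on genes encoded in mtDNA, with 78.1 to 84.3% on HFD and 43.5 to 64.7% on LFD, and in round spermatids 1.96 to 2.38%. Levels are therefore given in nuclear CPM, counts per 1e6 nuclear counts, and per kilobase of exon length where genes are ordered by level. Shares of the 9 genes, ratios of genes and marker sums take no account of length. Where a library shows 0 counts, as many as 3 remain possible, or 2.07 to 6.37 nuclear CPM in sperm, which covers counting error only. The 10 listed markers of spermatids and sperm, protamines and transition proteins among them, were all counted in every round spermatid library and summed to 7382 to 9620 in nuclear CPM there. In sperm, 8 to 10 of them were counted, with 1437 to 6330. The 12 markers of epididymal epithelium summed to 91.2 to 110.5 in round spermatids and to 9536 to 58222 in sperm, where 6 to 9 of them were counted, above the spermatid and sperm markers in every sperm library. The 8 leukocyte markers, all counted in each of these libraries, summed to 10.4 to 17.1 in round spermatids and to 1459 to 7047 in sperm. Markers of spermatocytes summed to 1118 to 1315 in round spermatids and 26.9 to 83.4 in sperm, those of spermatogonia to 42.8 to 74.7 and 12.96 to 72.1, and those of Sertoli cells to 45.7 to 105.7 and 278.6 to 3151. For Leydig cells the ranges were 20.5 to 25.1 and 2.81 to 50.9, for erythroid cells 2.27 to 3.47 and 57.4 to 1591, and for stroma and smooth muscle 14.97 to 22.6 and 263.1 to 3455. In sperm, 2 to 4 of the 8 Sertoli markers, 1 to 2 of the 7 Leydig markers and 1 to 4 of the 7 spermatogonia markers were counted. These sums thus rest on few genes. The Sertoli list also summed to 2016 to 2449 in liver, so its sum is not particular to Sertoli cells. The part of these other cells in the results below was not tested.

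All 9 genes were abundant in round spermatids. Together they took 0.952 to 1.13% of the nuclear counts there. *Smcp*, which encodes a cysteine-rich protein of the sperm mitochondria, stood highest at 1276 ± 183 nuclear CPM per kb (SD, n = 6), at rank 8 to 9 among genes of at least 200 bases. *Odf1*, the major outer dense fibre protein, followed at 925.1 ± 60.1 (rank 12 to 15). *Meig1*, a factor needed for tail assembly, came next at 748.2 ± 29.6 (rank 19 to 22), and *Akap4*, the main anchor of protein kinase A in the fibrous sheath, at 539 ± 43.2 (rank 35 to 52). *Odf2* had 346.7 ± 21.8, *Akap3* 313 ± 18.3, *Spata18* 249.96 ± 15.9, *Oaz3* 174.4 ± 14.3 and *Tssk6* 141.8 ± 13.1 on the same scale. In this order the ranges of 3 neighbouring pairs overlapped, *Smcp* with *Odf1*, *Odf2* with *Akap3*, and *Oaz3* with *Tssk6*, and the other neighbours were apart in all 6 libraries. *Odf2* and *Oaz3* carry merged exon lengths of 9919 and 4326 bases, which lowers their level per kilobase where most transcripts are shorter.

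In sperm the same genes were far from equal. *Smcp* reached 15803 ± 9875 nuclear CPM per kb (SD, n = 6) and *Odf1* 9810 ± 5696, at rank 2 to 8 and 3 to 9. *Spata18* had 481.1 ± 250.8, *Akap4* 252.5 ± 109.4, *Oaz3* 245.1 ± 146.5 and *Odf2* 170.6 ± 75.5. *Tssk6* followed at 70.3 ± 62.0, *Meig1* at 19.0 ± 6.71 and *Akap3* at 12.7 ± 14.2. Only *Smcp* and *Odf1* as a pair stood apart from the rest in every sperm library, and their own ranges overlapped, as did those of every other pair of neighbours. The 9 genes took 0.744% of nuclear counts in the LFD library with the most epididymal epithelium counts (LFD 1) and 5.22% in HFD library 1.

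**Figure D1:**
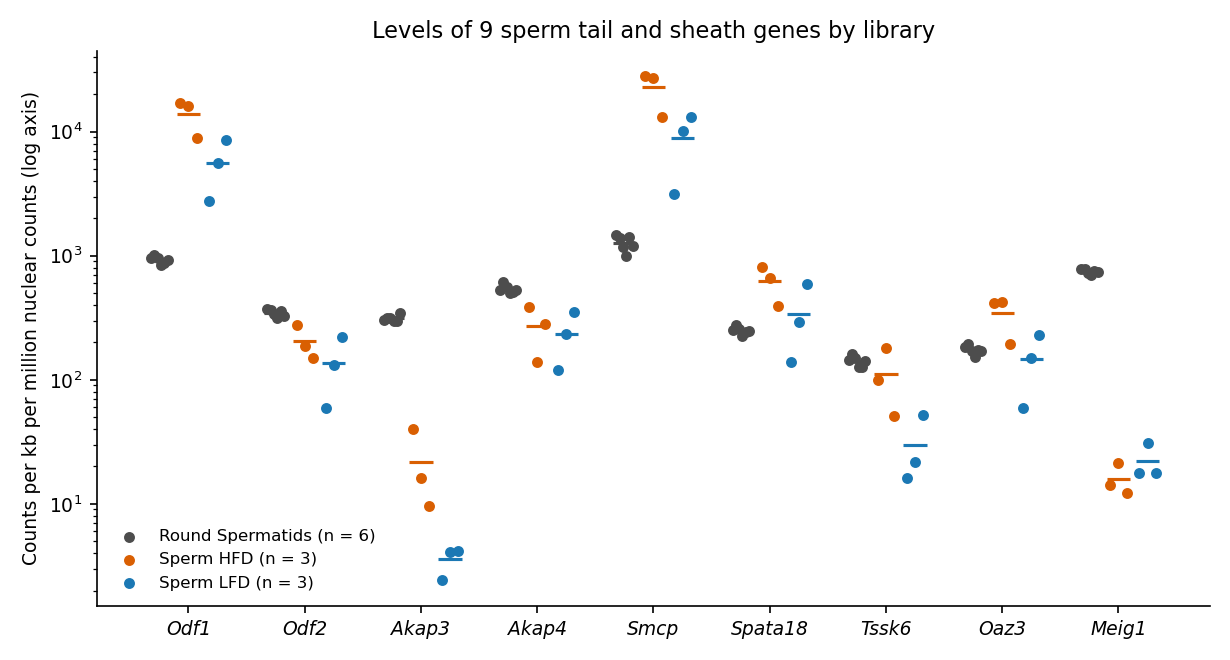
Nuclear CPM per kb (log axis) of the 9 genes in each library of round spermatids (grey), HFD sperm (orange) and LFD sperm (blue), with group means as bars. Odf1 and Smcp lie above their round spermatid levels in every sperm library, Akap3 and Meig1 lie below theirs in every sperm library, and sperm libraries spread far more than round spermatid libraries.

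The make-up of the 9-gene pool differed between the cell types whatever the scaling, because shares within a library need none. *Odf1* and *Smcp* together made up 19.4 to 21.8% of the counts of the 9 genes in round spermatids (median 20.7%) and 79.1 to 88.0% in sperm (median 83.1%). *Odf2* took 31.4 to 33.7% in round spermatids and 3.83 to 8.07% in sperm. *Meig1* went from 7.54 to 8.15% down to 0.0298 to 0.260%, and *Akap3* from 8.66 to 10.6% down to 0.0484 to 0.241%. *Spata18* moved least, 4.80 to 5.16% in round spermatids and 2.87 to 4.6003% in sperm, although the ranges did not meet. The 6 sperm and 6 round spermatid libraries did not overlap in the share of any of the 9 genes.

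**Figure D2:**
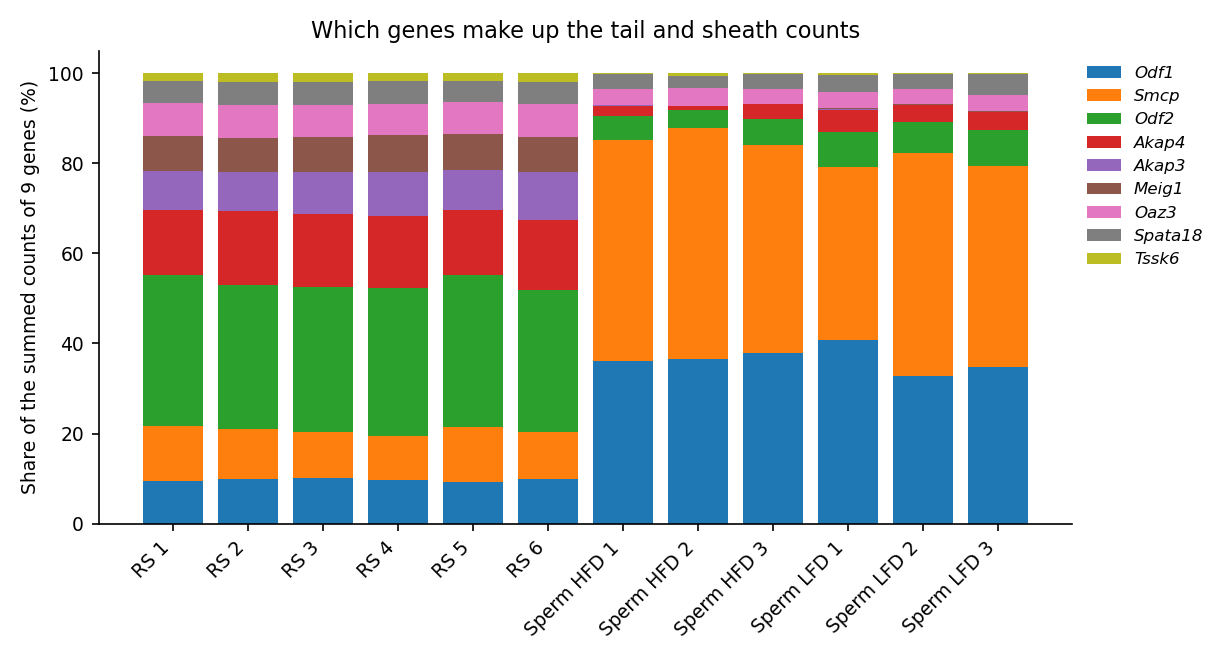
Share of each gene in the summed counts of the 9 genes (percent), 1 bar per library, for round spermatids (RS) and sperm of both diets. Odf1 and Smcp fill 79.1 to 88.0% of each sperm bar and 19.4 to 21.8% of each round spermatid bar, while Akap3 and Meig1 nearly vanish from the sperm bars.

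To compare levels between sperm and round spermatids, edgeR's quasi-likelihood test was fitted over 20791 genes with the mean of both diets as the sperm value. This contrast does not use the difference between the diets. Its sperm value does include the HFD libraries, whose high values helped to pick several members. The estimates of these members therefore rest partly on that choice. Estimates with HFD sperm alone, given below, rest on it most, so their calls and p-values are no test of the members. The test called 77.5% of all genes (adjusted p under 0.05), 25.1% higher and 52.3% lower in sperm. Over all genes the log2 fold changes had a median of -1.37. Of the 9 genes, 3 were called higher (*Smcp*, *Odf1*, *Spata18*), 5 lower (*Odf2*, *Akap4*, *Tssk6*, *Akap3*, *Meig1*) and 1 was not called (*Oaz3*), with a median of -1.13, so the share of the members called was near that of all genes. Scaled by library totals in place of TMM, the median of all genes was -2.94, and 2 of the 9 were higher (*Smcp* and *Odf1*; 13.1% of all genes) and 7 lower (71.8%). With LFD sperm alone and TMM, 2 members (*Smcp* and *Odf1*) were called higher and 5 lower, as were 5443 and 10339 of 20791 genes. Sperm libraries were read in single-ended and round spermatid libraries in paired-ended mode. By the methods, round spermatid RNA went into total (Ribo-minus) libraries, which is not stated for sperm. Cell type and library type cannot be told apart, nor can fewer cells of a type and less RNA per cell.

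*Odf1* and *Odf2* encode outer dense fibre proteins, *Odf1* with a small heat shock domain and *Odf2* as a scaffold that somatic cells use at the centrosome. *Odf1* (ENSMUSG00000061923, chromosome 15, 38219203 to 38226735 of GRCm38) had 19967 to 29506 counts in round spermatid libraries (median 24932). In sperm it had 14566, 8358 and 8708 counts on HFD and 4384, 6638 and 10086 on LFD, from libraries with a far smaller nuclear total. As nuclear CPM this was 926.3 to 1113 in round spermatids (median 1031) and 3029 to 18878 in sperm, without overlap. *Odf1* rose by 3.17 on the log2 scale (SE 0.32, adjusted p = 6.49e-07, edgeR) and by 1.43 with library totals. The rise was 2.22 with LFD sperm alone (called) and 4.12 with HFD sperm alone, whose values helped to pick members.

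*Odf2* (ENSMUSG00000026790, chromosome 2, 29889221 to 29931746) went the other way. It had 3147 to 3684 in nuclear CPM in round spermatids (median 3474) and 2748, 1854 and 1480 (HFD) and 589.4, 1294 and 2189 (LFD) in sperm, all below round spermatids. Its log2 fold change was -1.13 (SE 0.33, adjusted p = 0.00591, edgeR), close to the median of all genes. With HFD sperm alone it was -0.53 (adjusted p = 0.259, edgeR), and the call was lost. The ratio of *Odf1* to *Odf2* counts, a pair chosen after its values were seen, was 27.3 to 31.3% in round spermatids and 432 to 956% in sperm. It takes no account of exon length, 1105 bases for *Odf1* and 9919 for *Odf2*. Of 13 tested genes listed with them for the outer dense fibres, 12 fell and 0 rose, with a median of -5.83. Of those called, *Spert* fell least, which also had the highest level of the list in round spermatids (250.2 ± 17.4 nuclear CPM per kb, SD, n = 6; log2 fold change -1.48, SE 0.32, adjusted p = 0.000737, edgeR). The gene that fell most, *Odf3*, had 26448 counts over the round spermatid libraries and 1 over the sperm libraries.

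*Akap3* and *Akap4* encode A-kinase anchoring proteins, the scaffold of the fibrous sheath. Their promoters are shown because they share the longest run of bases among the members. RefSeq windows from 250 bases before to 50 after the start (GRCm38.p6) were at hand for 7 of the 9 genes, all but *Odf1* and *Oaz3*. The 250 bases before each start are, with the 20 shared bases in capitals, *Akap3* at chr6:126852848-126853097 and *Akap4* at chrX:7067265-7067514, both on the plus strand.

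Akap3: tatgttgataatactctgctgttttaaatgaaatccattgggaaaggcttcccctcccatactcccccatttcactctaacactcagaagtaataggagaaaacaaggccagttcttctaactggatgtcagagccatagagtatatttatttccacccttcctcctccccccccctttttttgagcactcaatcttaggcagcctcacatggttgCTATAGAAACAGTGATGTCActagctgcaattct
Akap4: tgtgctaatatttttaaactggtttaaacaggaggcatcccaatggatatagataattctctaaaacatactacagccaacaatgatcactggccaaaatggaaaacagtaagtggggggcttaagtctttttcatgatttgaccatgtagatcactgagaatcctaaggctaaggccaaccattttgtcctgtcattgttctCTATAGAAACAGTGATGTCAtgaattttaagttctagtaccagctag

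The run was in no other gene's window, while the next longest run of the 21 pairs of members had 16 bases. It ends in the letters TGATGTCA, an octamer close to the cyclic AMP response element TGACGTCA, which was noticed after the sequences were seen. Searched on both strands, TGATGTCA was in the windows of 3 of the 7 genes and in 3.62% of 32851 windows of the same length. The 7 genes have 13 windows, so the count of genes and the share of windows are unlike measures. *Akap3* and *Akap4* hold the octamer by its choice, as it was read from their shared run. Counted from -1 for the base before the start, it began at position -22 and again at -1 in *Akap3*, at -35 in *Akap4* and at 25 in *Smcp*, always on the strand of the gene. The RefSeq start of *Smcp* lies before the gene's start in the authors' annotation. TGACGTCA was in the windows of 0 of the 7 genes (1.79% of all windows) and TATAAA in 0 (13.6%). The 30 bases around the sites near the starts are shown with the octamer in capitals, *Akap3* at chr6:126853086-126853115 (plus strand) and *Smcp* at chr3:92589031-92589060 (minus strand).

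Akap3: agctgcaattcTGATGTCActccctagtgc
Smcp: ggagagtattaTGATGTCAtaaaagagctg

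The mRNA levels of these sheath anchors went apart in sperm. *Akap3* (ENSMUSG00000030344, chromosome 6, 126853098 to 126874308) had 20679 to 28496 counts in round spermatid libraries (median 23657), and 97, 24 and 27 on HFD and 11, 14 and 14 on LFD in sperm. Its log2 fold change was -5.20 (SE 0.41, adjusted p = 4.79e-08, edgeR). It was -3.53 with HFD sperm alone, -6.88 with LFD sperm alone and -5.99 without HFD library 1, called in each. *Akap4* (ENSMUSG00000050089, chromosome X, 7067519 to 7078609) had 31841 to 46405 counts in round spermatids (median 40021), and 904, 200 and 754 on HFD and 526, 760 and 1146 on LFD in sperm. In nuclear CPM it was 1502 to 1864 in round spermatids, and 1172, 424.4 and 847.5 on HFD and 363.5, 704.8 and 1074 on LFD in sperm, all below round spermatids. It fell by 1.16 on the log2 scale (SE 0.34, adjusted p = 0.00599, edgeR), a call that was lost with HFD sperm alone (-0.74, adjusted p = 0.134). For *Akap3* all sperm libraries were low, the HFD library 1 least so, and for *Akap4* LFD library 1 and HFD library 2 were lowest. The ratio of *Akap3* to *Akap4* counts was 53.3 to 67.8% in round spermatids and 1.22 to 12.0% in sperm. This pair, too, was chosen after its values were seen. Of 13 other fibrous sheath genes, 10 fell and 2 rose (median -2.04). The highest rise was that of *Gstm5*, a glutathione transferase (log2 fold change 2.00, SE 0.32, adjusted p = 6.58e-05, edgeR; 0.25 with library totals, not called). *Akap14*, an axonemal anchor, fell most, from 3496 counts over the round spermatid libraries to 5, all in 1 sperm library. *Ldhc*, the lactate dehydrogenase of germ cells, had the highest level of the list in round spermatids (1684 ± 44.4 nuclear CPM per kb) and 105.0 ± 26.5 in sperm.

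*Smcp* and *Spata18* belong to the mitochondria of the midpiece. *Smcp* (ENSMUSG00000074435, chromosome 3, 92583867 to 92588997) had 21390 to 39197 counts in round spermatids (median 26836), and 19803, 11693 and 10577 on HFD and 4139, 10002 and 12876 on LFD in sperm. In nuclear CPM the 6 round spermatid libraries lay at 915.5 to 1349 and the sperm libraries at 2860 to 25665, without overlap. *Smcp* rose by 3.38 on the log2 scale (SE 0.38, adjusted p = 1.66e-06, edgeR), by 1.62 with library totals and by 2.40 with LFD sperm alone, called in each. With HFD sperm alone, whose values helped to pick members, the rise was 4.36. *Spata18* (ENSMUSG00000029155, chromosome 5, 73651379 to 73679512), which encodes the mitochondria-eating protein of mitochondrial quality control, had 10344 to 15376 counts in round spermatids (median 12931), and 1320, 655 and 737 on HFD and 424, 661 and 1331 on LFD in sperm. In nuclear CPM it was 479.0 to 578.8 in round spermatids and 293.0 to 1711 in sperm, so the groups overlapped, with LFD library 1 below all round spermatid libraries. Its log2 fold change was 0.80 (SE 0.34, adjusted p = 0.0421, edgeR), and the call did not last. It was 0.66 (adjusted p = 0.0944) with DESeq2 size factors, and with library totals *Spata18* fell by 0.95 (adjusted p = 0.00254), while with LFD sperm alone the adjusted p was 0.888 (edgeR). The call was also lost without HFD library 1 (0.34), HFD library 2 (0.69), LFD library 2 (0.71) or LFD library 3 (0.28 on the log2 scale). Of 14 other genes of the mitochondrial sheath, 12 fell and 1 rose (median -2.79). The one that rose was *Kif5c*, a kinesin heavy chain (log2 fold change 2.11, SE 0.33, adjusted p = 4.92e-05, edgeR; 0.58 with library totals, not called). *Gk2*, a glycerol kinase of spermatids, fell most, by 7.91 (20 counts in all sperm libraries together), and *Gpx4*, a structural selenoprotein of the sheath, had the highest level of the list in round spermatids (455.2 ± 21.4 nuclear CPM per kb).

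*Tssk6* encodes a testis-specific serine kinase that spermatids need for a normal head and tail. *Tssk6* (ENSMUSG00000047654, chromosome 8, 69902184 to 69903518) had 3724 to 5274 counts in round spermatids (median 4667), and 103, 114 and 61 on HFD and 31, 31 and 74 on LFD in sperm. As nuclear CPM this was 169.2 to 213.6 in round spermatids and 21.4 to 241.9 in sperm. HFD library 2 lay above all round spermatid libraries and the other sperm libraries below them. It fell by 1.45 on the log2 scale (SE 0.32, adjusted p = 0.000932, edgeR). With HFD sperm alone it was -0.25 and not called (edgeR, adjusted p = 0.577, against 1.62e-07 to 0.00750 in the other edgeR alternatives). Of 8 listed TSSK kinases and partners, 7 fell and 0 rose (median -3.46). *Tssk2* fell least, by 1.21 (SE 0.26, adjusted p = 0.000796, edgeR), and *Tssk1* fell most, to 13 counts in all sperm libraries together. *Hsp90aa1*, a chaperone, had the highest level of the list in round spermatids (402.7 ± 12.5 nuclear CPM per kb) and 6.34 ± 3.65 in sperm. Exons of *Tssk6* share 375 bases with *Ndufa13* and 15 with *Yjefn3* on the opposite strand, and whether strand was used in counting is not given in the sources used here.

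*Oaz3* encodes the antizyme of spermatids, an inhibitor of ornithine decarboxylase, the enzyme that opens polyamine synthesis. *Oaz3* (ENSMUSG00000028141, chromosome 3, 94432414 to 94443915) had 14507 to 22732 counts in round spermatids (median 18340), and 1381, 868 and 744 on HFD and 374, 703 and 1050 on LFD in sperm. In nuclear CPM it was 659.7 to 840.4 in round spermatids and 258.4 to 1842 in sperm. HFD libraries 1 and 2 and LFD library 3 lay above all round spermatid libraries, HFD library 3 among them, and LFD libraries 1 and 2 below, so the groups overlapped. Its log2 fold change of 0.27 (SE 0.32, adjusted p = 0.458, edgeR) was not called and its sign depended on the scaling, at -1.49 (adjusted p = 3.68e-05) with library totals. With edgeR the change was -0.64 with LFD sperm alone (adjusted p = 0.163). With HFD sperm alone, whose values helped to pick members, it was 1.18, given as a description. Its exons share 2255 bases with *Tdrkh* and 157 with *Mrpl9* on the other strand. Of 9 other antizyme and polyamine genes 5 rose and 3 fell (median 0.97). *Sat1*, which acetylates polyamines, rose most, by 7.54 (SE 0.39, adjusted p = 8.94e-10, edgeR) and by 5.98 with library totals, and *Oaz2*, an antizyme of somatic cells, fell most, by 2.68 (SE 0.29, adjusted p = 1.21e-06, edgeR). *Odc1*, ornithine decarboxylase itself, had the highest level in round spermatids (105.5 ± 1.89 nuclear CPM per kb) and 64.5 ± 27.8 in sperm.

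*Meig1* is needed for transport along the manchette, the microtubule skirt of the elongating spermatid. *Meig1* (ENSMUSG00000026650, chromosome 2, 3409043 to 3422648) had 16026 to 25351 counts in round spermatids (median 19930), and 12, 11 and 12 on HFD and 28, 37 and 21 on LFD in sperm. In nuclear CPM it was 775.3 to 861.2 in round spermatids and 13.5 to 34.3 in sperm, all sperm libraries far below. It fell by 5.49 on the log2 scale (SE 0.24, adjusted p = 2.40e-10, edgeR), by 5.48 with HFD sperm alone and by 5.50 with LFD sperm alone. Of 19 other genes of the Meig1 complex, manchette and axoneme, 17 fell and 1 rose (median -3.81). *Ift20*, an intraflagellar transport protein, rose by 1.77 (SE 0.38, adjusted p = 0.000675, edgeR; 0.20 with library totals, not called). *Spag6*, a central pair protein, fell most, to 7 counts over the sperm libraries from 34021 over the round spermatid libraries. *Rsph1*, a radial spoke protein, had the highest level of the list in round spermatids (587.9 ± 70.5 nuclear CPM per kb).

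Over the 6 lists together, 76 tested genes that are no members gave 9 higher and 61 lower, with a median of -3.41, against -1.37 over all genes. With library totals 2 were higher, *Sat1* and *Smox*, and 67 lower. *Odf1* and *Smcp* lay above every other tested gene of the outer dense fibre, fibrous sheath and mitochondrial sheath lists.

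**Figure D3:**
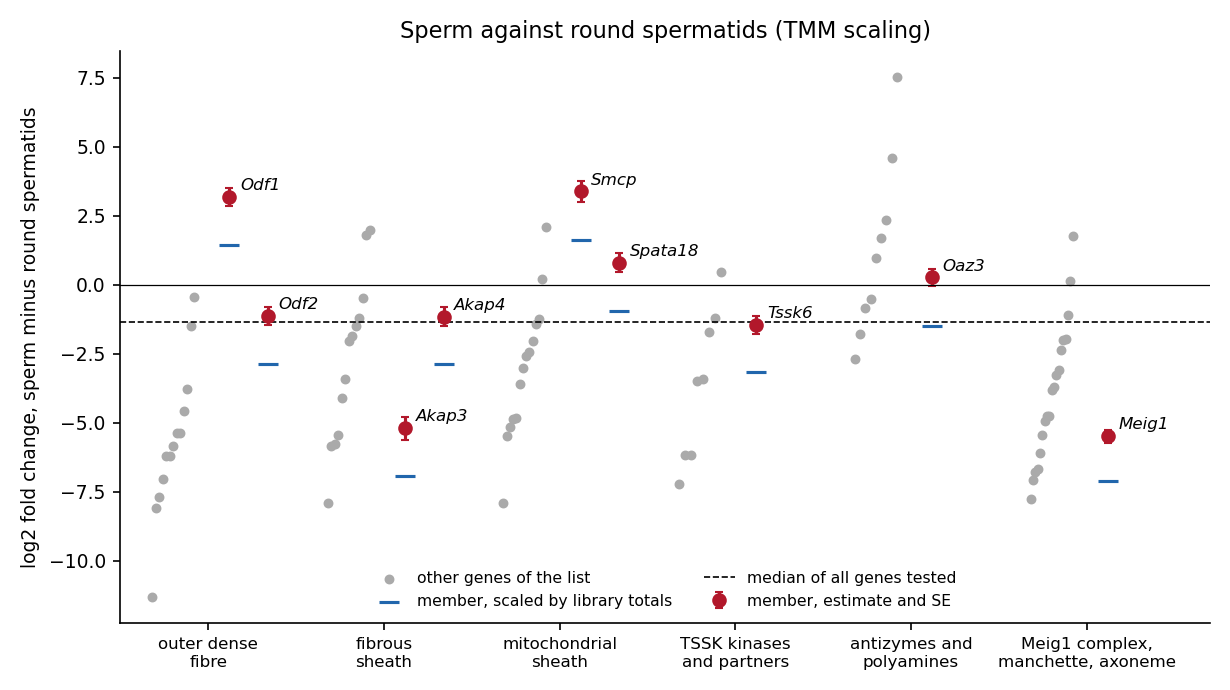
Log2 fold change of sperm minus round spermatids for the members (red, estimate and SE under TMM; blue dash, estimate with library totals) beside the other genes of their lists (grey), with the median of all 20791 tested genes dashed. Smcp (3.38) and Odf1 (3.17) lie above every listed gene of the outer dense fibre and sheaths, and Akap3 (-5.20) and Meig1 (-5.49) lie among the genes that fell.

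In sperm the diets were compared as a description, since HFD values helped to choose the genes. TMM scaling took the library factors 0.440 to 0.710 on HFD and 1.52 to 2.62 on LFD. The log2 fold changes of HFD minus LFD then had a median of -0.071 over all genes, and those of all 9 members were positive. They were 3.43 ± 0.79 (SE) for *Akap3*, 2.50 ± 0.65 for *Tssk6*, 2.05 ± 0.74 for *Smcp*, 2.00 ± 0.68 for *Odf1* and 1.91 ± 0.62 for *Oaz3*. *Spata18* had 1.56 ± 0.63, *Odf2* 1.29 ± 0.62, *Akap4* 0.92 ± 0.60 and *Meig1* 0.14 ± 0.78. Every HFD library lay above every LFD library for 5 of the 9 (*Odf1*, *Akap3*, *Smcp*, *Oaz3* and *Tssk6*), as did 8.21% of 8643 genes. The test over all genes called 0 of them, or 0% (edgeR; 1124 at an unadjusted p under 0.05; limma-voom 0, DESeq2 295).

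The values depended on the scaling, with a median over the members of 2.05 with DESeq2 size factors and 1.92 with TMM on nuclear genes, against 1.91 with TMM. In nuclear CPM, only *Odf1* and *Akap3* kept all HFD libraries above all LFD libraries, where 3.41% of genes did. *Odf1* had 18878, 17734 and 9788 on HFD and 3029, 6156 and 9454 on LFD, so HFD library 3 and LFD library 3 nearly met. *Smcp* had 25665, 24810 and 11889 against 2860, 9276 and 12070, and the groups overlapped through the same libraries. With library totals, only *Akap3* stayed apart (0.555% of genes), at 26.4, 8.02 and 6.65 CPM of the total on HFD and 4.30, 4.59 and 4.81 on LFD, and *Meig1* had every HFD library below every LFD library, as did 57.2% of genes. The log2 fold changes were then 1.58 for *Akap3*, 0.76 for *Tssk6*, 0.35 for *Smcp*, 0.27 for *Odf1* and 0.20 for *Oaz3*, and negative for *Spata18* (-0.15), *Odf2* (-0.42), *Akap4* (-0.77) and *Meig1* (-1.60), against a median of all genes of -1.82. Scaled by the sum of 5 protamine and transition protein genes, 7 were positive and 2 negative (*Akap4* -0.34, *Meig1* -1.16). The median of all genes was then -1.36. Whether that sum measures sperm content was not tested. A change of scaling moves all genes nearly alike, so these scales do not check each other.

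**Figure D4:**
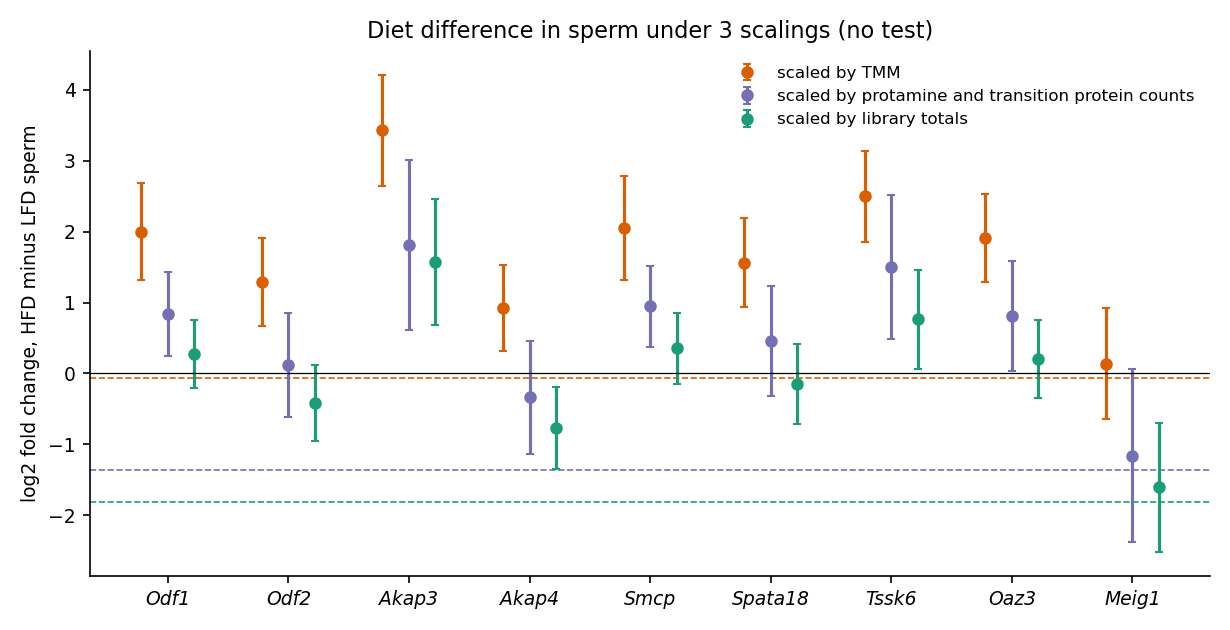
Log2 fold change of HFD minus LFD sperm for each gene with its SE under 3 scalings, TMM (orange), the sum of protamine and transition protein counts (violet) and library totals (green), with the median of all tested genes under each as a dashed line. All 9 are positive under TMM, 7 under the protamine and transition protein sum and 5 under library totals, and the dashed lines move down along with the genes.

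Ratios within a library do not depend on scaling. *Akap3* over *Akap4* was 10.7, 12.0 and 3.58% on HFD and 2.09, 1.84 and 1.22% on LFD, and *Odf1* over *Odf2* was 687, 956 and 661% on HFD and 514, 476 and 432% on LFD. Both ratios were higher in every HFD library. The pairs were chosen after their values were seen, and the share of other gene pairs that do so was not computed. As HFD values also helped to choose members, the separation may be partly set by that choice. *Smcp* over *Spata18* was 1435 to 1785% on HFD and 967 to 1513% on LFD, with overlap. *Smcp* over *Odf1* was 121 to 140% and 94.4 to 151%, and *Tssk6* over *Odf1* was 0.701 to 1.36% and 0.467 to 0.734%, both with overlap. Of the 9 marker lists, 2 did not overlap between the diets in nuclear CPM. Leukocyte markers were lower on HFD (1459 to 3941, against 4359 to 7047 on LFD) and erythroid markers higher (593.6 to 1591, against 57.4 to 556.8). The other lists overlapped, with epididymal epithelium markers at 9536 to 16965 and 11094 to 58222, stroma and smooth muscle at 263.1 to 3455 and 448.9 to 591.5, Sertoli cells at 278.6 to 1214 and 459.3 to 3151, and Leydig cells at 7.78 to 50.9 and 2.81 to 12.4. Spermatid and sperm markers had 3249 to 6330 and 1437 to 5113, spermatocytes 32.6 to 81.6 and 26.9 to 83.4, and spermatogonia 12.96 to 72.1 and 43.5 to 71.4. In CPM of the library total, epididymal epithelium markers were lower in every HFD library (2000 to 3715 and 4063 to 32911). So were leukocyte (306.0 to 863.1 and 1596 to 3983) and spermatogonia markers (2.72 to 13.8 and 16.8 to 25.2). On that scale 57.2% of all genes were lower in every HFD library, and erythroid markers overlapped (124.5 to 250.5 and 32.4 to 203.9). LFD library 1, the highest of the epithelium markers, was the lowest of the 6 in the share of the 9 genes. Without 1 sperm library, 8 or 9 of the 9 log2 fold changes stayed positive under TMM, a sign that the picking favours. Their median ran from 1.46 (without HFD library 1) over 1.55 (without LFD library 1) to 2.53 (without LFD library 3), in place of 1.91. The median of all genes ran from -0.22 to 0.030. *Odf2* ran from 0.67 to 1.97 and *Akap4* from 0.22 to 1.49, lowest without HFD library 1 and highest without LFD library 3. *Akap3* ran from 2.24 without HFD library 1 to 3.83 without HFD library 3. The part of the other cells in the diet values was not tested. Of the listed genes that are no members, 47 were tested between the diets and 0 were called (edgeR). At an unadjusted p under 0.05 there were 15, all higher on HFD, where 724 of all 8643 genes (8.38%) were. DESeq2 called 6 higher (3.15% of all genes, 272 higher and 23 lower), limma-voom 0, and edgeR with library totals 6 lower (37.8% of all genes).

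Among round spermatid libraries the levels of the 9 genes varied little, by a coefficient of variation of 3.96% (*Meig1*) to 14.3% (*Smcp*) in nuclear CPM. Pairwise correlations of the members over these 6 libraries, which share the preparation and differ in depth and diet, ran from -0.33 to 0.98 with a median of 0.65. Of 9070 nuclear genes with a mean of at least 10 CPM, those most like the mean of the members over the 6 libraries were *Wwtr1* (Pearson's r of log2 CPM 0.995), *Cdiptos* (0.994), *Plac8l1* (0.988), *Trp53rkb* (0.988) and *Hmox2* (0.987), a description of 6 points each.

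Outside the germ cells *Odf2* was the one member counted in every library. It had 407 to 557 counts in morulae (34.6 to 45.9 CPM of the total), with 499, 407 and 430 from HFD fathers and 417, 417 and 557 from LFD fathers, which overlapped. The title and treatment labels used for these groups are at odds with the free-text description in 3 of the 6 samples. In the 3' end libraries *Odf2* had 38 to 134 counts in eWAT, 17 to 40 in liver and 5 to 35 in muscle. The other 8 members summed to 0 to 16 counts per library in liver, muscle and morulae. *Meig1* had 22 counts over the 6 liver libraries, and 15 of the 16 in morula LFD library 1. In eWAT they summed to 0 to 5 counts in 5 libraries and to 197 in eWAT library 3, where all 8 were counted, led by *Meig1* with 60 and *Spata18* with 36. That library also had 230 counts on 9 of the 10 spermatid and sperm markers, against 6 to 8 counts in the other eWAT libraries. It had 6 counts on the 12 epididymal epithelium markers, against 0 to 28. In CPM of the total it was highest in Sertoli (642.9 against 176.5 to 368.4) and leukocyte markers (2311 against 1274 to 1778). It was lowest in spermatogonia (84.0 against 113.5 to 296.7) and erythroid markers (4146 against 6625 to 14074).

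**Figure D5:**
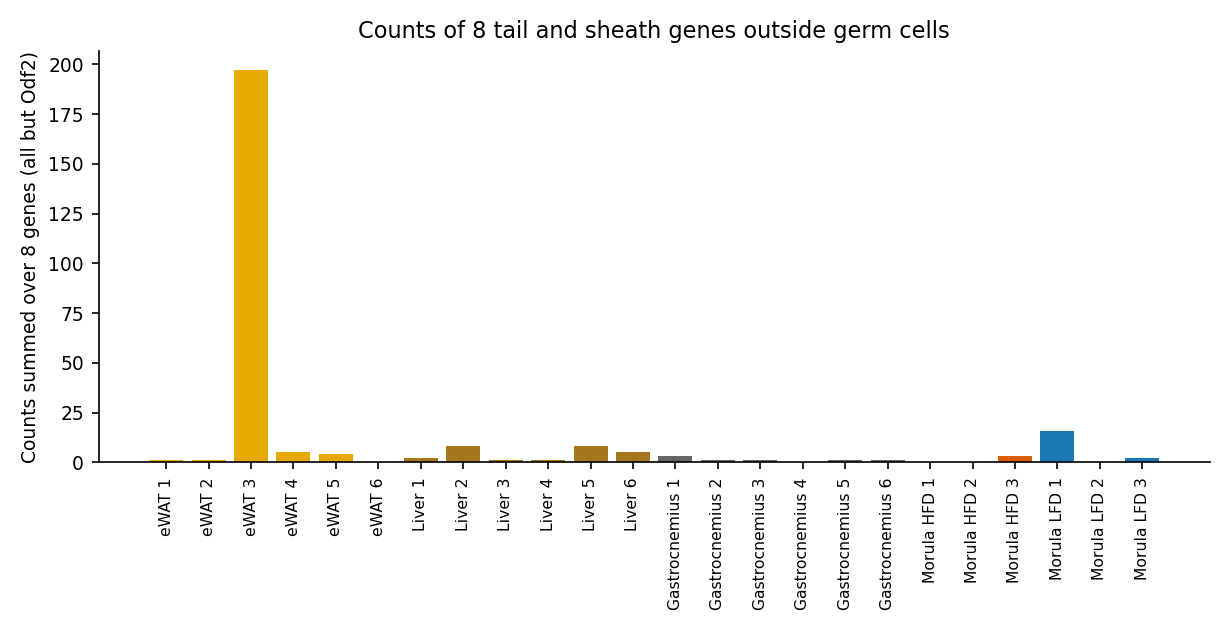
Counts summed over the 8 members other than Odf2 in each library of eWAT, liver, gastrocnemius and morulae. The bar of eWAT library 3 stands at 197 counts and no other bar is above 16.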

How the data were processed

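RNA was sequenced from round spermatids and cauda spermatozoa (Nextera libraries), morulae (Nextera) and liver, muscle and eWAT (QuantSeq 3' end libraries). The authors deposited raw counts per gene, made with BBDuk trimming, STAR on GRCm38 (Ensembl) and featureCounts; versions and the strand setting are not given in the sources used here. No pooled or normalized columns were used. From these counts, levels were computed as CPM of the library total or of nuclear counts, and per kb of exon length. Sperm and round spermatids were compared over shared genes with edgeR 4.0.16 (quasi-likelihood, TMM, filterByExpr minimum count 10, Benjamini-Hochberg, threshold 0.05) in R 4.3.3. DESeq2 1.42.0, limma-voom 3.58.1, other scalings, no filter and leaving out each library were alternatives. The scripts were tested on simulated data.

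The members, gene lists and tests were chosen with earlier results of these data known. The genes named beside the members were, in each list, those with the largest and smallest called log2 fold change and the highest level per length in round spermatids, and the 5 genes most correlated with the members' mean over round spermatid libraries (log2 of CPM + 0.5, mean CPM at least 10). Promoter motifs, ratio pairs, and a minimum of 10 summed counts for a far sample were chosen after seeing the data. No pair of libraries agreed within sampling noise (lowest chi-square per degree of freedom 18.9 in sperm and 3.50 in round spermatids). Depth is given with the results. The values of 1 listed gene are not reported here.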

Additional observations from a re-analysis of the deposited data

Results flagged for a closer look

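In 1 of the 6 eWAT libraries, library 3, 6 members stood far above the other 5 libraries by Dixon's test at the 95% level. In CPM of the library total, *Meig1* had 17.1, *Spata18* 10.3, *Smcp* 9.40, *Odf1* 8.26, *Oaz3* 4.56 and *Tssk6* 3.99 there. These genes reached the minimum of 10 summed counts over the eWAT libraries through library 3 itself, which held 60 of 61 counts of *Meig1*, 36 of 37 of *Spata18*, 33 of 38 of *Smcp*, 29 of 31 of *Odf1*, 16 of 16 of *Oaz3* and 14 of 15 of *Tssk6*. The far value was therefore nearly set by that minimum, and the rate of about 1 in 20 that chance gives does not apply, nor are genes of 1 library independent. The summed counts of the 8 members other than *Odf2* were 56.1 CPM in library 3 and at most 1.23 CPM in the other eWAT libraries, and spermatid and sperm markers were at 65.5 CPM against 1.73 to 4.48. The cause was not tested.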

How the results depend on the processing

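*Smcp* and *Odf1* stayed higher and *Akap3* and *Meig1* lower in sperm than in round spermatids under all alternatives run. With library totals, 2728 genes were called higher over all genes, 2 of the listed non-members were higher, and *Oaz3* (-1.49) and *Spata18* (-0.95) turned negative. With HFD sperm alone 4 members were called higher and 2 lower, as were 4687 and 8387 of 20791 genes. The calls of *Akap4* (-0.74), *Odf2* (-0.53) and *Tssk6* (-0.25) were lost there while *Oaz3* (1.18) was called. HFD values helped to pick members, so these calls are no test of them. *Oaz3* was negative with no filter (-0.16) and LFD sperm alone (-0.64). *Spata18* was not called at 0.66 with DESeq2 size factors or the DESeq2 test, 0.73 with TMM on nuclear genes, 0.38 with no filter, 0.53 with limma-voom and 0.067 with LFD sperm alone. Leaving out 1 library gave -0.16 to 0.52 for *Oaz3*, negative without HFD library 1 or LFD library 3, and 0.28 to 1.05 for *Spata18*. The members made up 3.00% of nuclear and 0.750% of all counts in sperm. Of 180 member values in this comparison 160 kept their direction and side of the threshold. The causes were not tested.

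Between the diets, 3266 genes were called with library totals, 41 with no filter, 295 with DESeq2 and 0 with TMM. With library totals 5 members were positive and *Akap4* (-0.77), *Meig1* (-1.60), *Odf2* (-0.42) and *Spata18* (-0.15) negative; with the protamine and transition protein sum *Akap4* (-0.34) and *Meig1* (-1.16) were. *Meig1* was -0.058 with no filter and -0.015 to 0.44 without 1 library. Of the listed non-members DESeq2 called 6 higher, and library totals 6 lower. Numbers in the sperm column names are not those of the titles, so the titles pair no columns. A replicate block by the column-name number, added after seeing the data, called 2 genes.

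In sperm, low nuclear counts limit *Meig1* (11 to 37 counts) and *Akap3* (11 to 97), and every level there rests on the scaling.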
